A study of Rattus norvegicus with 72 samples.

Results

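The clustered histone genes of the rat were described in lung RNA after inhalation of diesel exhaust particles (DEP). Members were all rows of the count table whose symbol begins with Hist1h, Hist2h, Hist3h or Hist4h, which gave 35 of 30042 rows. Of these, 34 had at least 1 count, and Hist2h4a had none in any library. The symbols name 4 genes of the linker histone H1, 13 of H2A, 11 of H2B, 3 of H3 and 4 of H4. The rule used the names alone, but it was set with earlier results of these data known. The animals were adult male Sprague-Dawley rats, 1 library from a piece of lung per animal and 72 libraries in 12 groups of 6. They breathed DEP at 1000 or 200 ug/m3, or filtered air, for 6 hours a day on 4 days, and were killed 1, 7 or 27 days later. Sample titles carry the letter H for animals of the 1000 ug/m3 set and L for those of the 200 ug/m3 set, and each set has its own air group, called air H and air L here. The labels do not say what else separates the H and L animals, so set and concentration cannot be told apart between the exposed groups. The series title names lung effects of inhaled diesel particles as the subject, and the comparisons ask which transcripts differed after exposure.

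Histone proteins package DNA: 2 copies each of H2A, H2B, H3 and H4 form the core of a nucleosome, and H1 binds the linker DNA beside it. Genes in the histone clusters are transcribed mainly in S phase, when new DNA needs new histones, and most of their mRNAs end in a stem-loop instead of a poly(A) tail. Libraries made from total RNA after ribosomal RNA removal, as here, can hold such transcripts, whereas selection on poly(A) would lose most of them. Some clustered histone genes also give polyadenylated transcripts in cells that do not divide. In RNA from whole tissue, fewer cells of a type and less RNA per cell cannot be told apart.

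Promoters of 5 members, 1 per histone class, are printed because clustered histone promoters share short known motifs. Each is the reference sequence of the 150 bases before the start of transcription in RefSeq for the assembly GRCr8, 5′ to 3′ on the + strand. The files themselves use the build Rnor_6.0, so these coordinates belong to GRCr8 alone. Capitals mark matches on either strand to the H1 box AAACACA, the CCAAT box CCAAT, the TATA box TATAAA or the octamer ATTTGCAT. The H1 gene Hist1h1b, H1f5 in RefSeq, lies at chr17:47421725-47421874. The H2A gene Hist3h2a, H2ac25 in RefSeq, lies at chr10:44233133-44233282. The H2B gene Hist2h2be lies at chr2:186469302-186469451, the H3 gene Hist2h3c2 at chr2:186526012-186526161 and the H4 gene Hist1h4b at chr17:47176096-47176245.
Hist1h1b: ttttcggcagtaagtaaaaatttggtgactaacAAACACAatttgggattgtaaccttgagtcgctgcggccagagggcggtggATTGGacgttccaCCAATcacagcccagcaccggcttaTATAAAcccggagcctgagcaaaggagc
Hist3h2a: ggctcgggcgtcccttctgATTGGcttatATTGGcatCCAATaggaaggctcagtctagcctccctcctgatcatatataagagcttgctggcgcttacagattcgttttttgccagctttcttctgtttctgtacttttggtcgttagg
Hist2h2be: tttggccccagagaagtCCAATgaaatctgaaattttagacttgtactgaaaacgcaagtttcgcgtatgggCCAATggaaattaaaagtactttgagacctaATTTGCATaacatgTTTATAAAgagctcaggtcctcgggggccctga
Hist2h3c2: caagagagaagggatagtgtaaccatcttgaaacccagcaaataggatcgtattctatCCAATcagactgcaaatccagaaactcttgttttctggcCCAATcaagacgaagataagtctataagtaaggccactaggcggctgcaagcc
Hist1h4b: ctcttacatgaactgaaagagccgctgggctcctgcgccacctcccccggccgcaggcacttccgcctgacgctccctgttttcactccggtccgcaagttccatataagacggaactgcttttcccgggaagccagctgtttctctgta
In Hist1h1b the H1 box began 117 bases before the start, with CCAAT boxes 66 and 53 bases before it and a TATA box 28 bases before it. In Hist2h2be the octamer began 47 bases before the start, and TATA boxes on both strands overlapped 33 and 31 bases before it. Hist3h2a held 3 CCAAT boxes in this window, Hist2h3c2 held 2 and Hist1h4b held no match.

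A promoter could be assigned to 27 of the 35 members, and 250 bases before each start were searched on both strands. The octamer was found in 11 of these 27 promoters (40.7%), in 6 of 12 H2A and 5 of 9 H2B promoters and in none of the others, against 1.56% of all 33469 promoters of this length. A CCAAT box was found in 25 of the 27 (92.6%) against 34% of all promoters. The TATA box was found in 16 (59.3%) against 12.9%, and the H1 box in 5 (18.5%), including 2 of 3 H1 promoters, against 6.08%. A match describes letters and is not a measured binding site. Of the members placed by RefSeq, 20 of cluster 1 lie on chromosome 17, 5 of cluster 2 on chromosome 2 and 4 of cluster 3 on chromosome 10 of GRCr8.

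Library totals were 1042336 to 2397971 counts at day 1, 3471134 to 6279763 at day 7 and 3761631 to 6520180 at day 27. Outside these ranges were 3 libraries of the 1000 ug/m3 groups with fewer than 500000 counts, 1 at day 7 and 2 at day 27. Depth differed with the day of killing, so an effect of either cannot be told apart from the other. All 11 markers of lung epithelium, such as Sftpc and Ager, passed the filter on low counts at each day. The testis-type members, Hist1h1t, Hist1h2aa, Hist1h2ba and Hist3h3, held 162, 68, 21 and 49 counts over all 72 libraries.

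The members summed to 108757 counts over all libraries. A library held 404 to 1312 histone counts at day 1, 1492 to 3041 at day 7 and 1403 to 2669 at day 27, without the 3 shallow libraries. H2B genes gave 33.8% of the histone counts, H1 genes 22.5%, H2A genes 21.4%, H4 genes 16.5% and H3 genes 5.86%. In each class 1 gene led: Hist1h1d with 69.1% of the H1 counts, Hist3h2a with 27.8% of H2A, Hist1h2bh with 63.7% of H2B, Hist1h3a with 60.9% of H3 and Hist1h4b with 49.6% of H4. Counts are not divided by gene length, so these shares describe reads and not molecules. Members of a class have near-identical coding sequences, and how the counting treated reads that match several genes is not given in the sources used here, so a value of 1 member may hold reads of another. The symbols Hist1h1d, Hist1h2bh, Hist1h2bl and Hist2h2aa3 each pair with 2 RefSeq genes by synonym, so the gene that their counts belong to is uncertain. Hist1h2ai and Hist1h4b are also a synonym of a further gene, and the gene of the same symbol was used for their promoters. A count test was possible where a member passed the filter on low counts: 17 members at day 1, 25 at day 7, 26 at day 27 and 26 in the fit of all 72 libraries. The 9 members that did not pass it in the fit of all libraries were Hist1h1t, Hist1h2aa, Hist1h2af, Hist1h2ba, Hist2h2ab, Hist2h4a, Hist3h2ba, Hist3h2bb and Hist3h3.

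Summed over all members, the histone RNA level of exposed animals overlapped that of air animals in all 6 comparisons. Levels are CPM, that is, counts per 1000000 counts of the library, after TMM factors, which adjust library totals for composition. At day 1 the sum was 424 ± 50.5 CPM (SD, n = 6; lowest 348, median 422, highest 484) in air H and 412 ± 68.5 (327, 406, 510) after 1000 ug/m3. In air L it was 547 ± 88.1 (469, 505, 680) and after 200 ug/m3 it was 611 ± 183 (382, 630, 843). At day 7 the 4 means were 477 ± 47.2 in air H, 466 ± 24.3 after 1000 ug/m3, 494 ± 30.1 in air L and 477 ± 51.9 after 200 ug/m3. At day 27 they were 392 ± 45.4, 384 ± 45.6, 425 ± 55.4 and 394 ± 58.7 CPM in the same order. Every exposed group overlapped its own air group, and the ratio of exposed to air means was 0.973, 0.976 and 0.981 for 1000 ug/m3 at days 1, 7 and 27 and 1.12, 0.965 and 0.927 for 200 ug/m3. The widest spread was in the 200 ug/m3 group of day 1, where 4 animals were at 618 CPM or above and the other animals at 382 and 418.

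**Figure D1:**
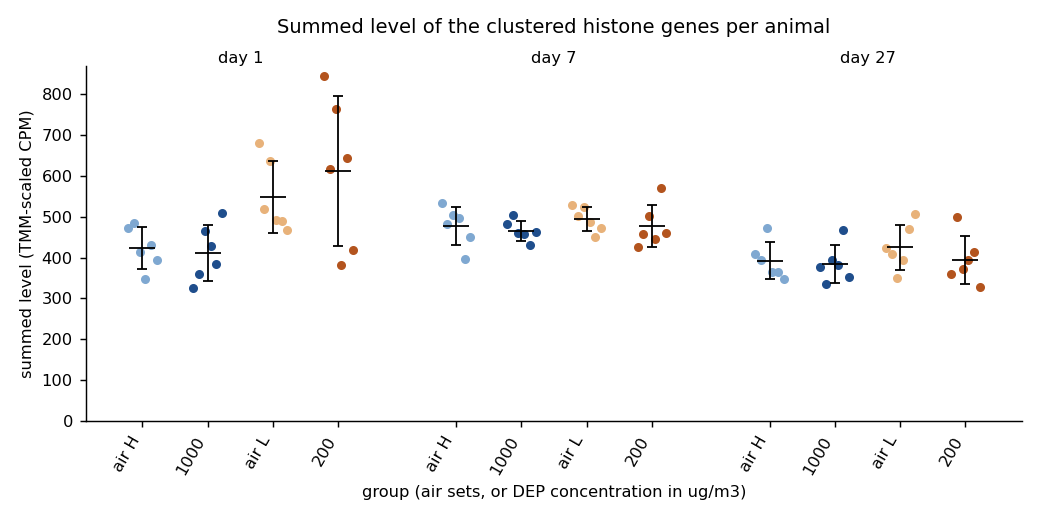
Summed TMM-scaled CPM of the clustered histone genes, 1 point per animal, in the 12 groups ordered by day, with the mean (long bar) and SD (short bars) of 6 animals. Exposed and air groups of each letter overlap at every day, and the air L and 200 ug/m3 groups of day 1 reach 680 and 843 CPM.

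No clustered histone gene passed the test for a change after exposure, at either concentration on any day. In the test across all genes (edgeR's quasi-likelihood test, Benjamini-Hochberg adjusted p under 0.05), 0 of 17 members passed at day 1 for each concentration, where 0% of all genes passed. At day 7, 0 of 25 members passed for 1000 ug/m3, where 0% of all genes passed, and 0 of 25 for 200 ug/m3, where 0.00698% passed. At day 27, 0 of 26 members passed for each concentration, again beside 0% of all genes. At an unadjusted p under 0.05 the member counts were 0, 1 and 0 for 1000 ug/m3 at days 1, 7 and 27 and 1, 1 and 1 for 200 ug/m3, beside 3.41%, 4.39% and 7% and 6.02%, 5.71% and 9.69% of all genes. DESeq2 also called 0 members in each of the 6 comparisons. The median log2 fold change of the tested members was -0.02, 0.02 and -0.10 for 1000 ug/m3 and 0.23, 0.04 and -0.13 for 200 ug/m3, where the median of all genes lay within 0.02 of 0. For 200 ug/m3 at day 1, 14 of 17 members were higher than in air and 3 lower.

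The data bounded the size of an exposure effect for most of the members tested. At day 1, 18 of the 35 members were not tested. The 95% interval lay within a 2-fold change in either direction for 15 of 17 members after 1000 ug/m3 and 16 of 17 after 200 ug/m3 at day 1. The counts were 22 and 24 of 25 at day 7 and 25 and 24 of 26 at day 27, beside 94.2% to 96.1% of all genes. Among the class-leading members, the fold change nearest to the edge was that of the H3 gene Hist1h3a, at -0.29 on the log2 scale (95% interval -0.66 to 0.07) after 200 ug/m3 at day 27. At the upper side stood Hist3h2a with 0.24 (-0.16 to 0.63) after 200 ug/m3 at day 1. Hist1h1d, the H1 gene with the most counts, had log2 fold changes of -0.01, 0.02 and -0.17 after 1000 ug/m3 at days 1, 7 and 27. After 200 ug/m3 they were 0.23, -0.07 and 0.08.

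The members with the smallest p values are given as values. Hist1h1b, an H1 gene whose promoter is printed above, was at 20.6 ± 5.68 CPM (13.7, 20.9, 27.7) in air L and 30.0 ± 7.17 (19.3, 29.9, 37.9) after 200 ug/m3 at day 1. The groups overlapped, and the log2 fold change was 0.53 (SE 0.20, adjusted p = 0.791 in edgeR). Hist1h2ai, an H2A gene, was at 5.29 ± 1.45 CPM (3.29, 5.82, 6.85) in air H and 8.11 ± 1.88 (6.25, 7.99, 11.2) after 1000 ug/m3 at day 7. These groups overlapped only at their edges, with a log2 fold change of 0.58 (SE 0.20, adjusted p = 1.00 in edgeR). Hist1h4b, an H4 gene, had -0.27 (SE 0.12, adjusted p = 0.812) after 200 ug/m3 at day 7. At day 27 the H2A gene Hist1h2ao had -0.29 (SE 0.12, adjusted p = 0.448) after 200 ug/m3, and the H2B gene Hist1h2bf had -0.36 (SE 0.21, adjusted p = 0.744) after 1000 ug/m3. At day 1 the H2A gene Hist1h2ail had 0.57 (SE 0.33, adjusted p = 1.00) after 1000 ug/m3. The difference of the effect between the concentrations was called for 0 of 17, 0 of 25 and 0 of 26 members at days 1, 7 and 27, beside 0.00813%, 0% and 0% of all genes, and for 0 members at an unadjusted p under 0.05. Both tools gave 0 here.

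**Figure D2:**
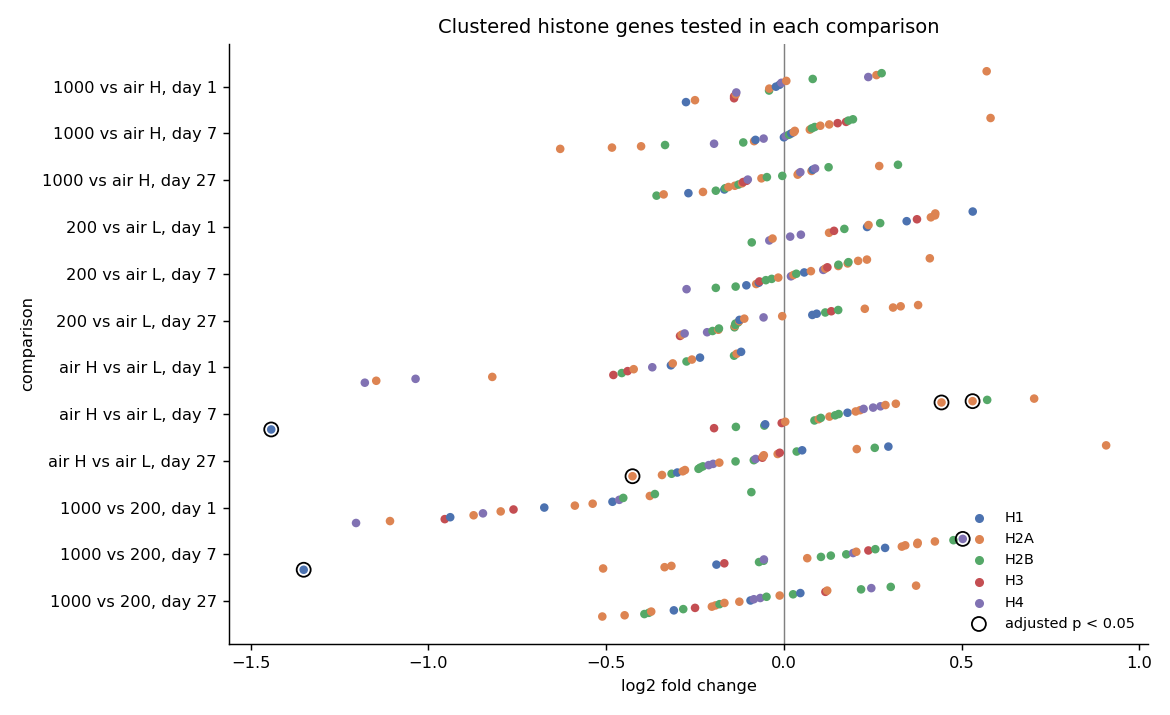
Log2 fold change of each tested clustered histone gene in 12 comparisons (1000 ug/m3 against air H, 200 ug/m3 against air L, air H against air L, 1000 against 200 ug/m3, each at days 1, 7 and 27), coloured by histone class, with a circle around genes at an adjusted p under 0.05 in edgeR. No gene is circled in the 6 exposure comparisons, and Hist1h1d stands apart at -1.44 and -1.35 in the comparisons of H with L animals at day 7.

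The smallest adjusted p among comparisons within a day belonged to Hist1h1d at day 7, where it separated the H from the L animals with or without exposure. Hist1h1d was at 34.1 ± 6.16 CPM (28.8, 32.7, 46.2) in air H and 93.2 ± 6.33 (85.3, 93.8, 100.2) in air L. After 1000 ug/m3 it was at 36.0 ± 7.27 (27.5, 33.7, 46.4), and after 200 ug/m3 at 88.4 ± 16.1 (74.9, 79.4, 112). Every H animal of day 7 lay below every L animal, whatever it had breathed. The log2 difference was -1.44 (SE 0.12, adjusted p = 3.95e-10 in edgeR) between the air groups and -1.35 (SE 0.13, adjusted p = 4.36e-09) between the exposed groups. Calls were common in these comparisons, with 25.5% of all genes between the air groups and 27.9% between the exposed groups. The share of all genes without overlap between the sets was not counted. At day 1 Hist1h1d was not called between the sets, with 103 ± 15.6 CPM in air H (88.0, 98.8, 126) and 119 ± 22.1 in air L (102, 111, 161). After 1000 and 200 ug/m3 it was at 101 ± 19.2 and 140 ± 44.2 CPM at day 1, a log2 difference of -0.48 (SE 0.18, adjusted p = 0.292). At day 27 air H was at 67.9 ± 6.35 CPM (62.2, 64.7, 76.5) and air L at 55.2 ± 22.8 (34.4, 46.2, 87.9), with air H inside the range of air L. Across the 12 groups the highest mean of Hist1h1d was 4.11 times the lowest. This ratio was 1.54 for Hist3h2a, 1.73 for Hist1h2bh, 1.95 for Hist1h3a and 2.66 for Hist2h4, and it was higher in some members with few counts, such as 5.11 for Hist1h2bo.

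**Figure D3:**
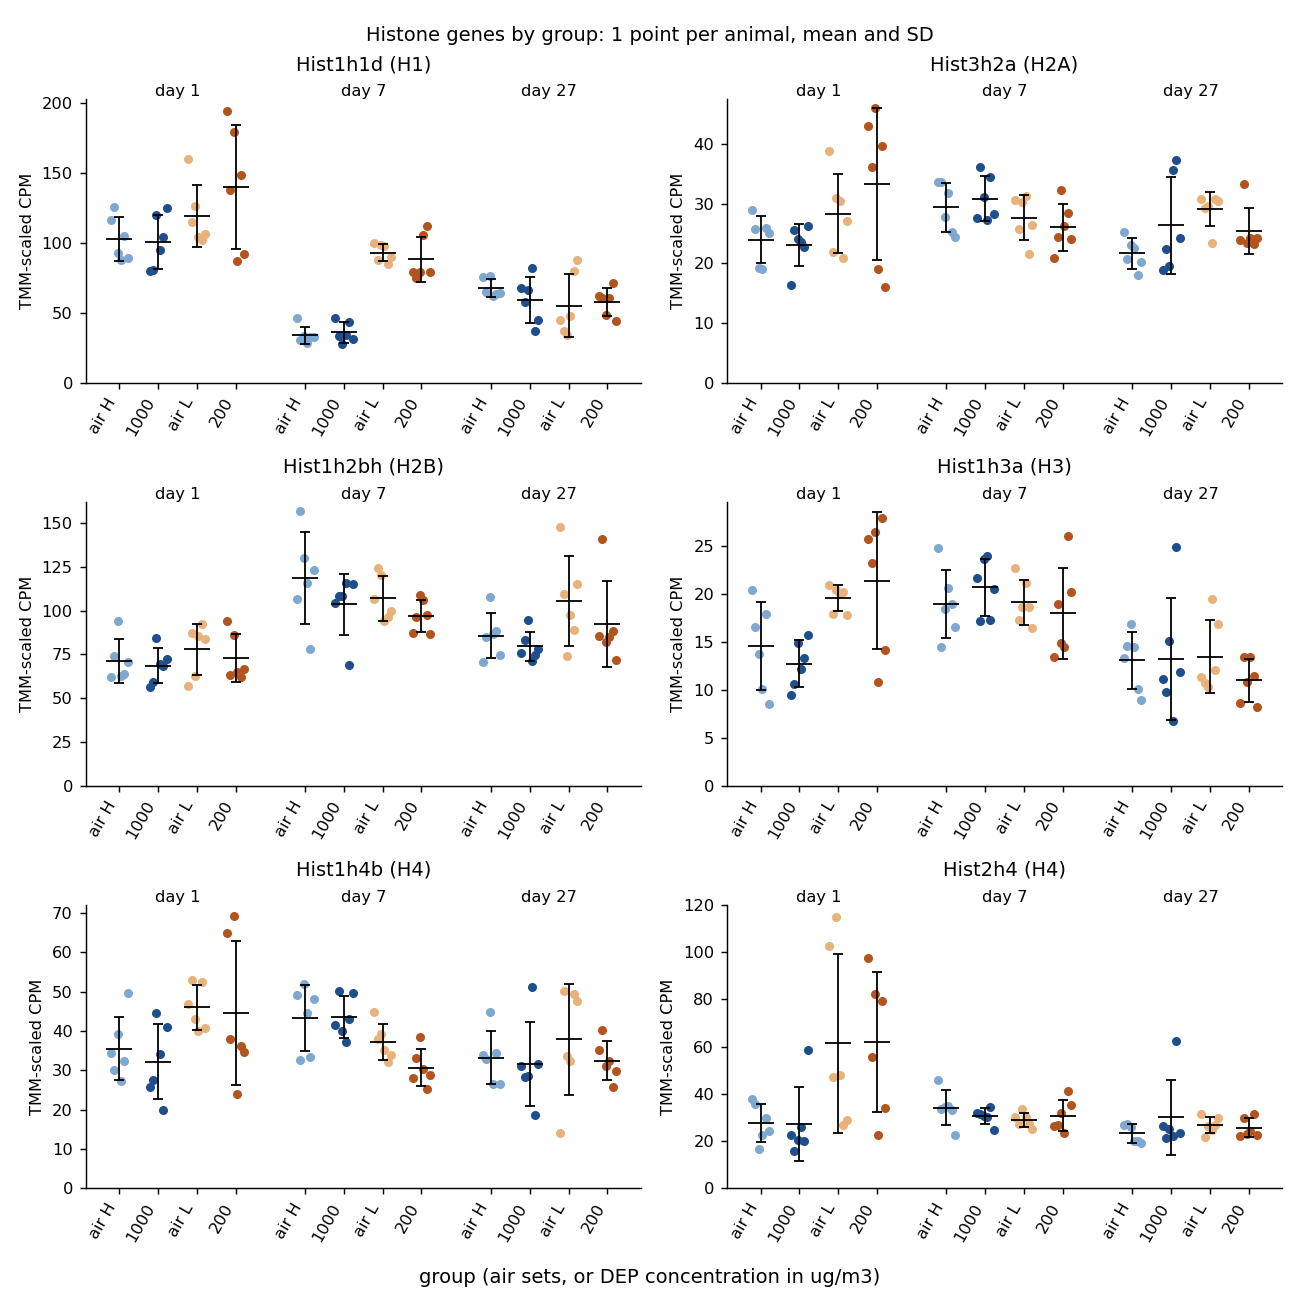
TMM-scaled CPM of Hist1h1d, Hist3h2a, Hist1h2bh, Hist1h3a, Hist1h4b and Hist2h4, 1 panel each, 1 point per animal in the 12 groups, with mean and SD. In the panel of Hist1h1d, the 12 H animals of day 7 lie between 27.5 and 46.4 CPM and the 12 L animals between 74.9 and 112.

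Other members went the opposite way between the air sets at day 7. In edgeR 3 of 25 members passed, beside 25.5% of all genes. Besides Hist1h1d these were the H2A genes Hist1h2ail, with 8.64 ± 1.37 CPM (6.95 to 10.5) in air H and 5.99 ± 0.60 (5.29 to 6.64) in air L, and Hist1h2ao, with 20.6 ± 3.40 and 15.2 ± 2.76 CPM. Hist1h2ail did not overlap between these groups, with a log2 difference of 0.53 (SE 0.20, adjusted p = 0.0434), and Hist1h2ao differed by 0.44 (SE 0.14, adjusted p = 0.0180). The call of Hist1h2ail was lost without a filter on low counts (adjusted p = 0.0573) and in DESeq2 (0.0680). Of the 25 members 19 were higher in air H, with a median of 0.15. Summed without Hist1h1d, the members were at 443 CPM in air H and 401 in air L, while with it they were at 477 and 494. Between the exposed groups 2 of 25 members passed, beside 27.9% of all genes: Hist1h1d and Hist1h4b, the latter 0.50 higher (SE 0.12, adjusted p = 0.00187) in the 1000 ug/m3 group.

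Other genes of histone supply and cell division were called between the air sets at day 7 in shares near or below the 25.5% of all genes, apart from 3 of 8 histone genes outside the clusters. Among these 8 tested genes, 0 were higher and 3 lower in air H. On the log2 scale these were H1fx, a linker histone, at -1.32, H3f3b, which encodes an H3 variant made throughout the cell cycle, at -0.85, and H2afx, the variant phosphorylated at DNA breaks, at -0.55. Of 26 DNA replication genes 0 were higher and 2 lower, the licensing factor Cdt1 at -1.33 and the ribonucleotide reductase subunit Rrm2 at -0.88. Of 18 mitosis genes only the kinase gene Plk1 passed, at -0.97. Of 13 genes that make and process histone mRNA, Lsm11, a subunit of the U7 particle that cuts these transcripts, was higher by 0.42 and Casp8ap2 by 0.21, and the cleavage factor gene Cpsf3 was lower, at -0.33. Of 11 lung epithelium markers 1 was higher and 6 lower in air H, with summed levels of 17932 to 21321 CPM against 18702 to 24059 in air L. Their part in the histone differences was not tested.

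At day 27 the H2A gene Hist3h2a was lower in air H, at 21.7 ± 2.55 CPM (18.0, 21.7, 25.3), than in air L, at 29.1 ± 2.82 (23.5, 30.0, 30.9). Only the lowest air L animal lay within the range of air H. The log2 difference was -0.43 (SE 0.11, adjusted p = 0.00925 in edgeR), and it was the single call among 26 members, beside 14% of all genes. Of the 26 members 20 were lower in air H, with a median of -0.11. Of 7 ciliated cell markers 4 were also lower in air H. The summed level of these markers was 387 to 463 CPM in air H and 474 to 638 in air L. Between the exposed groups of day 27 their mean sum was higher after 1000 ug/m3, at 511 CPM, than after 200 ug/m3, at 456. Their part in the difference of Hist3h2a was not tested. Between the exposed groups of day 27, 0 of 26 members passed, beside 0% of all genes, and 1 member had an unadjusted p under 0.05. In DESeq2 the count was also 0.

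At day 1 the members leaned as a group without a call. All 17 tested members were lower in air H than in air L, with a median log2 difference of -0.37. All 17 were also lower after 1000 than after 200 ug/m3, with a median of -0.67. A fit of only the air H and 1000 ug/m3 libraries kept 14 members. Some of the 17 may therefore have passed the filter through L libraries, where levels were higher, which favours this direction. With no filter, 28 of 34 members were lower between the air groups and 33 of 34 between the exposed groups. In edgeR 0 of 17 passed between the air groups, beside 1.68% of all genes, and 0 of 17 between the exposed groups, beside 0% of all genes. At an unadjusted p under 0.05 there were 6 and 14 members, beside 19.8% and 12.5% of all genes, and DESeq2 gave 0 calls in both. The widest differences were those of the H4 gene Hist2h4, at 27.7 ± 8.11 CPM (16.5, 27.0, 37.6) in air H and 61.4 ± 37.99 (26.6, 47.5, 115) in air L. After 1000 and 200 ug/m3 Hist2h4 was at 27.3 ± 15.7 (15.9, 21.7, 58.6) and 61.9 ± 29.6 (22.4, 67.5, 97.7) CPM, with overlap in both pairs of groups. The log2 difference of Hist2h4 was -1.18 (SE 0.42, adjusted p = 0.124 in edgeR) between the air groups and -1.20 (SE 0.44, adjusted p = 0.279) between the exposed groups. Next came Hist1h2ao with -1.15 (SE 0.35, adjusted p = 0.0757) and Hist1h4a, another H4 gene, with -1.04 (SE 0.32, adjusted p = 0.0739) between the air groups.

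Other RNAs without a usual poly(A) tail were set beside the histone genes at day 1. Rmrp, the RNA of the RNase MRP particle, and Terc, the RNA of telomerase, were the 2 listed RNAs of this kind with a row in the table. Between the air groups of day 1, Rmrp differed by -2.02 (SE 0.58, adjusted p = 0.0707) and Terc by -2.13 (SE 0.52, adjusted p = 0.0475). Rmrp was at 38348 and 40404 CPM in animals 049 and 051 of air L and at 4218 and 4236 in animals 053 and 054 of the same group. The summed histone level of these animals was 680 and 636 CPM in the former and 490 and 469 in the latter, and Hist2h4 was at 103 and 115 against 26.6 and 29 CPM. Mki67, a marker of dividing cells, went the other way in them, at 28.9 and 38.6 against 82.8 and 76.5 CPM. In the 200 ug/m3 group, animals 057 and 059 had 22555 and 20718 CPM of Rmrp and histone sums of 843 and 763, and animals 060 and 062 had 3083 and 4411 CPM of Rmrp and sums of 382 and 418. Of the 12 H animals of day 1, 11 were at 3154 to 5836 CPM of Rmrp and animal 030 at 10929. After removal of group means, the summed histone level and Rmrp had r = 0.87 (rho 0.90) over the 12 L animals of day 1, 0.37 over the 12 H animals of day 1, 0.32 over day 7 and 0.04 over day 27. Members differed in this: over the L animals of day 1 Hist1h1d had r = 0.84 with Rmrp, and Hist1h2bh, the member with the highest mean CPM, had r = -0.22. How far depth or library makeup accounts for these values was not tested.

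**Figure D4:**
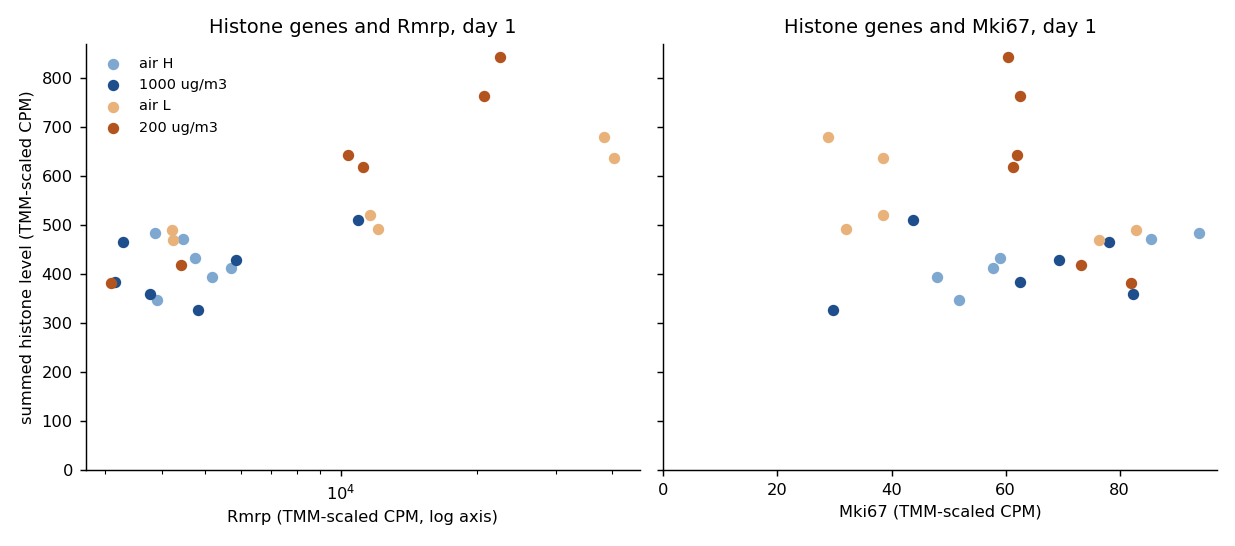
Summed histone CPM of the 24 animals of day 1 against Rmrp CPM (left, log axis) and against Mki67 CPM (right), 1 point per animal, coloured by group. The animals above 20000 CPM of Rmrp have histone sums of 636 to 843 CPM, and their Mki67 levels run from 28.9 to 62.6 CPM.

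The 4 day 1 libraries above 20000 CPM of Rmrp were all from L animals and held the highest histone sums of each L group. Their removal lowers the L groups and leaves fewer animals, so a smaller lean without them was fixed in advance. It was not a test of Rmrp. Of 17 members 13 were then lower in air H, with a median of -0.35 and 3 at an unadjusted p under 0.05, and 16 of 17 were lower after 1000 than after 200 ug/m3, with a median of -0.47 and 7 at that level. Hist1h4a then differed by -0.59 (adjusted p = 0.685) and Hist1h2ao by -0.43 (adjusted p = 0.751) between the air groups. The exposure comparisons of day 1 still had 0 calls, with 0 and 4 of 17 members at an unadjusted p under 0.05 for 1000 and 200 ug/m3.

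Between days 1 and 7 of the air H animals, 6 of 26 members rose and 1 fell in the fit of all 72 libraries. This share lay below the 36.1% of all genes called in either direction. Those that rose were the H2A genes Hist1h2ao (log2 fold change 1.32, SE 0.23, adjusted p = 1.79e-06), Hist1h2ail (1.13), Hist1h2ah (0.57) and Hist1h2an (0.53), and the H2B genes Hist1h2bh (0.74) and Hist1h2bo (2.01). Hist1h2bo failed the filter on low counts in the fits of days 1 and 7 alone and passed the fit of all libraries through groups where it is high. Air H at day 1, at 0.45 CPM, had the lowest of its 12 group means, so its rises from that group are tied to how it entered the test. Hist1h2ao went from 8.31 ± 1.60 CPM (6.14 to 10.98) to 20.6 ± 3.40 (16.5 to 24.5), with no overlap. Hist1h2bh, the H2B gene with the most counts, went from 71.2 ± 12.3 CPM (61.9 to 94.2) to 118 ± 26.2 (78.1 to 157), with overlap. Hist1h1d fell by 1.58 on the log2 scale (SE 0.18, adjusted p = 1.62e-10). Of the 26 members 24 were higher, with a median of 0.46. Rmrp was at 4634, 6693 and 4938 CPM in air H at days 1, 7 and 27, with log2 changes of 0.53 (adjusted p = 0.217) to day 7 and -0.44 (adjusted p = 0.354) from day 7 to day 27. At day 7 the air H animals 009 to 012 had histone sums of 481 to 532 CPM and Rmrp of 6755 to 8070. Animals 033 and 034, of a separate number series, had sums of 398 and 451 CPM and Rmrp of 5220 and 5407. Day comparisons were not fitted with a block for this series. Scgb1a1, a marker of airway club cells, fell by 1.45 (adjusted p = 5.71e-09) to day 7 and rose by 0.85 from day 7 to day 27. Of 11 lung epithelium markers 2 rose and 4 fell to day 7, with summed levels of 15857 to 22664 CPM at day 1, 17932 to 21321 at day 7 and 18521 to 22943 at day 27. Their part in the day course of the histone genes was not tested. Of 27 DNA replication genes 6 rose and 1 fell in the same comparison, a share below the 36.1% of all genes, among them Mcm2, a subunit of the replicative helicase, by 0.52 and the sliding clamp gene Pcna by 0.44. Slbp, which encodes the protein that binds the histone stem-loop, rose by 0.71 (adjusted p = 5.01e-06), while H1fx fell by 2.16. With no scaling factors 11 members passed.

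From day 7 to day 27 members of all 5 classes fell in the air H animals, while Hist1h1d rose. Of 26 members 14 fell, beside 10.7% of all genes that fell, and 1 rose, beside 15.8% that rose. Of the H1 genes Hist1h1a fell by 0.72, of the H2A genes Hist1h2ail by 0.99, Hist1h2ah by 0.58, Hist1h2an by 0.57 and Hist3h2a by 0.44, of the H2B genes Hist1h2bl by 0.90 and Hist1h2bh by 0.48, and of the H3 genes Hist1h3a by 0.54. The others that fell were Hist1h2ak, Hist1h2ao, Hist1h2bcl1, Hist1h2bd, Hist1h2bk and the H4 gene Hist1h4a. Hist1h2bl failed the filter on low counts in the fit of day 1 alone. Air H at day 27, at 1.60 CPM, had the lowest group mean of Hist1h2bl. The fall of Hist1h2bl may thus be tied to how it entered the fit of all libraries. Of the 26 members 25 were lower, with a median of -0.49. Hist1h3a went from 18.9 ± 3.55 CPM at day 7 to 13.04 ± 2.99 at day 27, and Hist3h2a from 29.4 ± 4.11 to 21.7 ± 2.55. Hist1h1d rose by 0.99 (SE 0.17, adjusted p = 7.31e-06). Slbp fell by 0.52 (adjusted p = 9.15e-05), as did Mcm2 by 0.45 and the mitotic genes Nusap1 by 0.72, Top2a by 0.55 and Bub1 by 0.52. Of 27 DNA replication genes 1 rose and 5 fell, and of 18 mitosis genes 1 rose and 5 fell. Against day 1, day 27 of air H had 2 members higher, Hist1h2ao by 0.82 and Hist1h2bo by 1.60, and Hist1h1d lower, at -0.59, beside 9.94% of all genes.

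**Figure D5:**
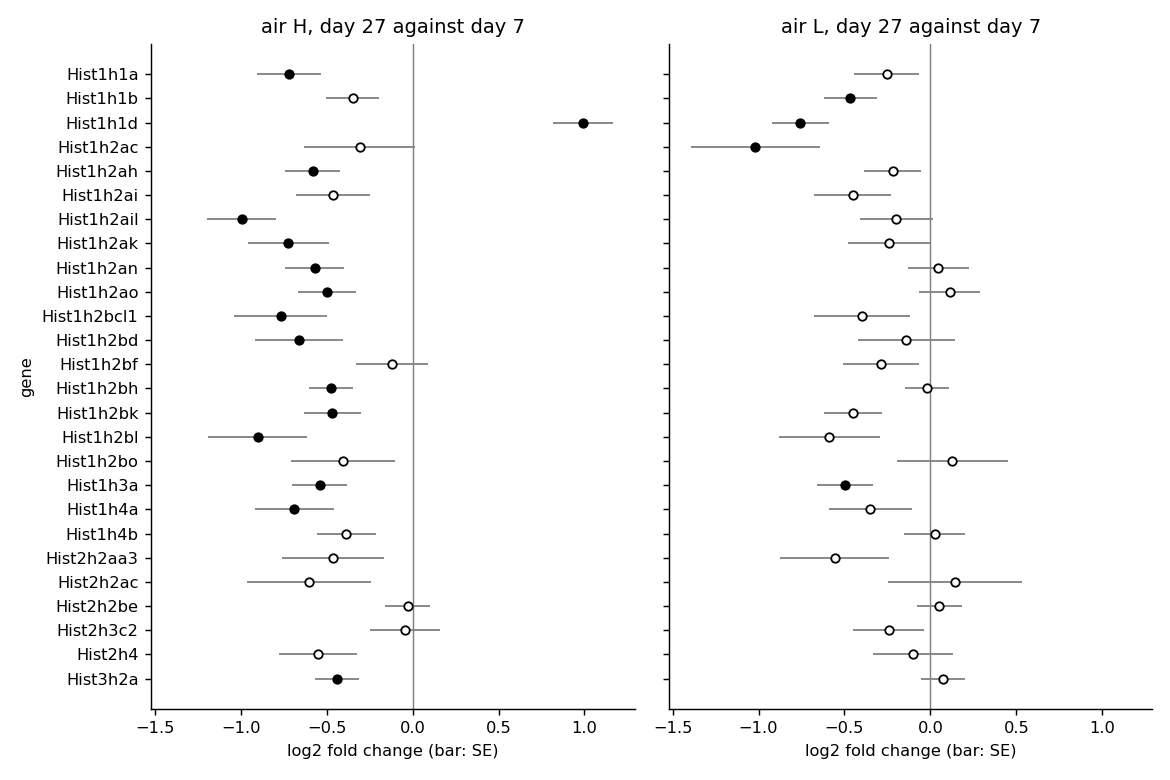
Log2 fold change with SE of the 26 tested members from day 7 to day 27 in air H (left) and air L (right), with filled points at an adjusted p under 0.05 in edgeR. In air H 14 members are filled on the lower side and Hist1h1d alone on the higher side, while in air L 4 members including Hist1h1d are filled on the lower side.

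Air L animals had other calls. From day 1 to day 7, 18 of 26 members were lower in air L, with a median of -0.13, unlike in air H. From day 7 to day 27 the summed level fell in each set. The ratio of day 27 to day 7 means was 0.861 in air L and 0.821 in air H. Over these days 19 of 26 members were lower in air L, with a median of -0.24. By day 7, Hist1h2bh rose by 0.46 (SE 0.15, adjusted p = 0.0254 in edgeR) and Hist2h4 fell by 1.09 (SE 0.24, adjusted p = 8.61e-04), 2 of 26 members beside 14.5% of all genes. By day 27, Hist1h2bh rose by 0.44, and 6 members fell: Hist1h1d by 1.12 (SE 0.18, adjusted p = 6.54e-07), Hist2h4 by 1.20, Hist1h4a by 1.00, Hist1h2ac by 1.48, Hist1h3a by 0.53 and Hist2h3c2 by 0.59, together 7 of 26 beside 32.3% of all genes. From day 7 to day 27, 4 of 26 fell, beside 16.6% of all genes in either direction: Hist1h1d by 0.76 (SE 0.17, adjusted p = 5.97e-04), Hist1h3a by 0.50, Hist1h1b by 0.46 and Hist1h2ac by 1.02. The call of Hist1h2ac in this comparison was lost under 6 alternative settings, and that of Hist2h3c2 to day 27 under 4. Hist1h2ac also failed the filter on low counts in the fit of day 1 alone. Air L at day 27, at 1.47 CPM, had the lowest group mean of Hist1h2ac. The falls of Hist1h2ac into that group may thus be tied to how it entered the fit of all libraries. Without the 4 libraries rich in Rmrp, Hist2h4 changed by -0.38 (adjusted p = 0.362) to day 7 and -0.47 (adjusted p = 0.139) to day 27, and Hist1h2bh by 0.29 in both, past the threshold in neither. The counts of calls were then 0 to day 7 and 4 to day 27 in place of 2 and 7. Hist1h1d still fell by 0.95 (adjusted p = 8.48e-05 in edgeR) from day 1 to day 27. In air L of day 1, the libraries left out, 049 and 051, had the highest Hist2h4 and the lowest Hist1h2bh. Smaller changes of these members were thus fixed in advance. Rmrp and Terc themselves fell by 1.83 and 1.67 from day 1 to day 7 in air L. Of 18 mitosis genes 3 rose from day 1 to day 7, among them Top2a by 0.76, and 4 fell from day 7 to day 27, among them Top2a by 0.58 and the kinase gene Cdk1 by 0.60.

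The change over days was also compared between the air sets, and the shares of members called lay near or below those of all genes. Between days 1 and 7 the difference between air H and air L changed for 6 of 26 members, beside 18.1% of all genes. Hist1h1d changed by -1.22 (SE 0.25, adjusted p = 2.15e-04), and Hist1h2ao, Hist1h2ail, Hist1h2bo, Hist1h4a and Hist2h4 changed by 1.58, 1.34, 2.47, 1.30 and 1.41. From day 7 to day 27 it changed for 5 of 26, beside 29% of all genes: Hist1h1d by 1.75 (SE 0.24, adjusted p = 2.11e-08), Hist1h2ail by -0.80, Hist1h2ao by -0.61, Hist1h2bh by -0.46 and Hist3h2a by -0.51. From day 1 to day 27 it changed for 3 of 26, beside 11% of all genes. Animals 049 and 051, among the 4 libraries rich in Rmrp, had the highest Hist2h4 and Hist1h4a of air L at day 1. Without those 4 libraries, Hist2h4 changed by 0.72 (edgeR, adjusted p = 0.137) and Hist1h4a by 0.88 (adjusted p = 0.167) between days 1 and 7. Neither was past the threshold. The comparison of day courses was added after the data were seen.

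Histone RNA was set against Mki67 and against Mcm2 to Mcm7, the helicase subunits that unwind DNA in S phase, animal by animal after removal of group means. The summed histone level had r = -0.04 (rho 0.01) with Mki67 and 0.23 (rho 0.44) with the mean of the Mcm genes over 72 animals, and 0.01 and 0.39 without the 3 shallow libraries. With Mki67 the sum had r = 0.22 over H and -0.26 over L animals, and -0.13, -0.11 and 0.29 at days 1, 7 and 27. With the Mcm mean it had r = 0.33 (rho 0.63) over H and 0.24 (rho 0.13) over L animals. By day, r with the Mcm mean was 0.36, 0.36 and 0.30. Among 12281 genes ordered by their r with the histone sum, Mki67 stood at rank 6487. Over the 17 members tested at every day, r with Mki67 had a median of -0.03 (range -0.40 to 0.34), as did all genes at -0.03. With the Mcm mean the median was 0.16 (range -0.28 to 0.80) and 15 of 17 members lay above 0. All genes had a median of 0.10. Without the shallow libraries, 16 of 17 members lay above 0 with a median of 0.32 (range -0.03 to 0.56). All genes then had a median of 0.00. Mki67 and the Mcm mean had r = -0.16 and rho = 0.18 with each other, opposite in sign.

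Of 10 relations tested for the class-leading members, 1 passed. Hist1h3a, an H3 gene, had r = 0.278 and rho = 0.453 with the Mcm mean (permutation test within groups, two-sided, 72 animals, p = 0.0001, adjusted over the 10 relations p = 0.001 for r and 0.0011 for rho). Without the 2 animals farthest from the median of the Mcm mean, r was 0.443, and without the 3 shallow libraries it was 0.560. Within the sets r was 0.265 over the H animals (adjusted p = 0.0725) and 0.476 over the L animals. Within days it was 0.580 at day 1 (adjusted p = 0.0552), 0.380 at day 7 and 0.159 at day 27 (adjusted p = 0.752). With Mki67 the r of Hist1h3a was 0.164 (rho 0.183, permutation p = 0.145, adjusted p = 0.483). Hist1h1d had 0.102 with Mki67 and 0.025 with the Mcm mean, and the latter was 0.321 (adjusted p = 0.0168) without the 3 shallow libraries. Hist3h2a had -0.159 and 0.042, Hist1h2bh 0.105 and 0.262, and Hist1h4b -0.041 and 0.027, with adjusted p of 0.483 or above in each.

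Members varied together only loosely. Of the 136 pairs of the 17 members 115 had r above 0, with a median of 0.25 over 72 animals. Values of 1 library share its depth and scaling factor, and their part in this was not tested. The genes outside the family whose levels were most like the histone sum were LOC680097 and LOC102551184 (r = 0.70 each), LOC102549061 (0.68), Mlf2 (0.66), Capg (0.64), Txn1, Rmrp and Tmem200b (0.63 each), Id3 (0.62) and Fkbp8 (0.61). Without the 3 shallow libraries LOC100360950 (0.74) stood first and Atp5e (0.69) at rank 3, and Rmrp, Fkbp8 and Id3 stood at ranks 12, 14 and 16. Of the lists compared with the histone sum over the same animals, the 2 RNAs without a usual poly(A) tail, Rmrp and Terc, had the highest median r at 0.52, followed by lung epithelium markers at 0.41, with 8 of 11 above 0. DNA replication genes had a median of 0.09, mitosis genes 0.08, histone genes outside the clusters 0.20 and genes that make and process histone mRNA -0.07, where all genes had -0.03. No gene of these lists passed the test in any of the 6 exposure comparisons, and Mki67 differed from air by -0.09, 0.06 and -0.22 after 1000 ug/m3 and by 0.43 (SE 0.27), -0.01 and -0.24 after 200 ug/m3 at days 1, 7 and 27 on the log2 scale.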

How the data were processed

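Lung RNA of 72 rats was sequenced from stranded total RNA libraries without ribosomal RNA, per the labels. The deposited file is a table of raw read counts per gene symbol, made by the authors. Per the submitters' processing notes, the tools were HTSeq 0.6.1, HISAT2 2.1.0, Trimmomatic 0.35, bcl2fastq 2.19 and SAMtools 1.8, with the build Rnor_6.0. No source used here gives the strand setting or says how reads that match several genes were counted. Either could move counts between members of a histone class.

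Titles and characteristics gave the groups. All genes' counts were tested by the robust quasi-likelihood test of edgeR 4.0.16 (R 4.3.3), with filterByExpr, TMM scaling and p-values adjusted over all genes tested at a threshold of 0.05. Each day's 24 libraries entered 1 fit with a mean per group, and day comparisons came from a fit of all 72. Nothing in the labels says that animals of a group were housed or exposed independently, so p-values measure the spread between these libraries. Levels are TMM-scaled CPM. Correlations used log2 of CPM plus a pseudocount of 1 CPM, group means removed, with 100000 permutations within groups (scipy 1.17.1). The fits were tested on simulated counts. Named members were the class-leading member of each class, up to 8 members past the threshold per direction in each comparison (otherwise the 2 with the smallest p), and up to 3 genes per direction from each list, not all of which are repeated here. Other members and animals singled out by name were chosen after their values were seen. Members and lists were chosen with earlier results of these data known. Alternatives were DESeq2 1.42.0, RLE factors, unscaled library totals, no filter, a minimum of 1 CPM in 6 libraries, fits without the 3 shallow libraries, fits of the 12 libraries of a comparison, and a block for the series of animal numbers. Fits without the 4 libraries above 20000 CPM of Rmrp, and the comparison of day courses between the air sets, were added after the data were seen. RefSeq promoters were matched by symbol or synonym. Of 35 members 29 matched 1 gene.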

Additional observations from a re-analysis of the deposited data

Results flagged for a closer look

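In 156 sets of 6 animals (summed levels, the class-leading members and Mki67 in each group), 14 had 1 animal far from the other animals by Dixon's test, and chance alone gives about 1 in 20. In air H at day 7, animal 009 had the highest summed H1 level, 82.3 CPM with the next at 70.4, and the highest Hist1h1d, 46.2 with the next at 33.1. Among 1000 ug/m3 animals, the shallow library 045 of day 27 had an H2A sum of 150 CPM against 86.1 in the next animal and a sum without Hist1h1d of 430 against 326. Animal 023 of the same group had an H2B sum of 144 CPM with the next at 123, and animal 030 of day 1 an H3 sum of 33.2 with the next at 22.7. In the shallow library 037 of day 7, Hist1h2bh was lowest at 69.1 CPM with the next at 104, and Mki67 highest at 112 with the next at 64.2. Hist3h2a was lowest in animal 005 of day 1 at 16.5 CPM, with the next at 22.8. Animal 019 of air H at day 27 had an H2B sum of 163 CPM with the next at 132. In air L at day 27, Hist3h2a was lowest in animal 085 at 23.5 CPM with the next at 29.2. Animal 090 of the 200 ug/m3 group at day 27 stood apart 3 times, with an H2B sum of 203 CPM against 139, Hist1h2bh at 141 against 88.3 and Hist3h2a at 33.3 against 24.3 in the next animal.

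The change between days differed between air H and air L for 14 combinations of member and days, by the test of that difference in edgeR. The shares of members called, 6, 3 and 5 of 26 for days 1 to 7, 1 to 27 and 7 to 27, stood beside 18.1%, 11% and 29% of all genes, near or below that background. From day 1 to day 7 the air H change exceeded that of air L by 1.58 on the log2 scale for Hist1h2ao, 1.34 for Hist1h2ail, 2.47 for Hist1h2bo, 1.30 for Hist1h4a and 1.41 for Hist2h4, and for Hist1h1d the difference was -1.22. Between days 1 and 27 it was 1.99 for Hist1h2ac (adjusted p = 0.0227), 0.97 for Hist1h2ao (0.0318) and 1.93 for Hist1h2bo (0.0486). From day 7 to day 27 it was 1.75 for Hist1h1d, -0.80 for Hist1h2ail, -0.61 for Hist1h2ao, -0.46 for Hist1h2bh and -0.51 for Hist3h2a. Hist1h2bo and Hist1h2ac rest on low counts, with 0 counts in at least 1 air H library of day 1.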

How the results depend on the processing

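Counts of members past the threshold and the class-leading correlations were recomputed under 264 alternatives in all, of which 230 kept their direction and side of the threshold or stayed within 1.5 times the count. The 6 exposure comparisons and the 3 differences between concentrations had 0 calls under each alternative run. Between the air sets at day 7, a fit of only the 12 libraries called 6 members in place of 3. Between the exposed sets at day 7, no scaling factors and leaving out the shallow libraries each called 4 in place of 2. Between days 1 and 7 in air H, no scaling factors called 11 in place of 7. In air L, the fit without the libraries rich in Rmrp called 0 in place of 2 (day 1 to 7) and 4 in place of 7 (day 1 to 27), and no filter called 2 in place of 4 (day 7 to 27). For the difference between air sets from day 1 to day 27, no filter, DESeq2 (with some adjusted p-values not given) and the fit without the Rmrp libraries each called 1 in place of 3, and from day 7 to day 27 no filter and DESeq2 each called 3 in place of 5. Of 519 values for single members under alternatives, 484 kept their call, 35 missed the threshold and 0 changed direction. The cause of these moves was not tested.

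With the Mcm mean, r of Hist1h1d was 0.321 without the 3 shallow libraries and passed the threshold, and Hist1h3a missed it over H animals (0.265), day 1 (0.580) and day 27 (0.159). Relations that did not pass changed sign as follows. Without scaling factors, r with the Mcm mean was -0.0205 for Hist1h1d and -0.0148 for Hist1h4b, and without the shallow libraries -0.0308 for Hist1h2bh. Over H animals it was -0.0237 for Hist1h1d, and r with Mki67 was 0.112 for Hist3h2a, -0.0945 for Hist1h2bh and 0.0406 for Hist1h4b. Over L animals, r with Mki67 was -0.129 for Hist1h1d, and with the Mcm mean -0.0347 for Hist1h2bh and -0.0723 for Hist1h4b. At day 1, Hist1h1d had -0.119 with Mki67 and Hist1h2bh -0.117 with the Mcm mean. At day 7, Hist1h1d had -0.227 and Hist3h2a -0.165 with the Mcm mean, and Hist3h2a had 0.0705 and Hist1h2bh -0.613 (permutation test, adjusted p = 0.0575) with Mki67. At day 27, Hist1h2bh had -0.0274 with the Mcm mean and Hist1h4b 0.0471 with Mki67.

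No paired analysis was possible because animal numbers are not shared between groups. Day 1 libraries held 404 to 1312 histone counts, and 17 members passed the filter there, against 25 at day 7 and 26 at day 27.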
